A study of Rattus norvegicus with 20 samples.

Results

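Monocyte-attracting CC chemokines are small secreted proteins that draw monocytes and macrophages along a concentration gradient, and CC chemokine receptors on those cells read the gradient. The 8 genes described here were taken by name from a table of 21792 genes measured in rat lung: the ligands Ccl2, Ccl7, Ccl3, Ccl4, Ccl6 and Ccl9 and the receptors Ccr1 and Ccr2. Each was found in a single row, under its symbol in capitals (CCL2, CCL7, CCL3, CCL4, CCL6, CCL9, CCR1 and CCR2), and 7 of the 8 were detected well enough to be tested. Total lung RNA had been hybridised to Illumina rat bead arrays, on which every probe sits on many beads, with 1 array per rat. The silica lungs came from 8 male CDF Fisher 344 rats aged 3 months (identifiers 81 to 88) that inhaled the mineral dust crystalline silica (15 mg/m3, 6 h daily over 5 days) and were killed 16 h after it ended. The controls were 12 male rats of the same strain and age that breathed air on the same schedule and were killed equally long after it ended. Their identifiers fall in 3 runs of 4 (89 to 92, 105 to 108 and 137 to 140), and the lowest run follows on from the silica rats. The samples are whole lung, so that a change in the number of cells that make an mRNA and a change in the mRNA per cell cannot be told apart.

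Ccr2 is carried by inflammatory monocytes and is the receptor of Ccl2 and Ccl7. Ccr1 is carried by monocytes, macrophages and neutrophils and binds Ccl3 and Ccl7. Ccl4 is a close relative of Ccl3 and attracts monocytes and T cells. Ccl6 and Ccl9 are rodent chemokines that bind Ccr1 in the mouse. In lungs that have taken up mineral particles, alveolar macrophages and epithelial cells are known sources of such ligands, and the monocytes they attract become macrophages in the tissue.

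Silica lungs had more mRNA of every ligand that could be tested, whereas the receptors differed by 1.15-fold or less. Ccl2 was 3.49-fold higher (95% confidence interval 2.73 to 4.48), Ccl7 3.09-fold higher (2.66 to 3.58) and Ccl3 1.99-fold higher (1.63 to 2.41) in silica than in air lungs. Ccl6 was 1.30-fold (1.18 to 1.43) and Ccl4 1.26-fold higher (1.08 to 1.45). Ccr1 was 1.15-fold higher (1.05 to 1.26), and Ccr2, at 1.12-fold (0.998 to 1.25), did not pass the test. Of the 7 genes tested, 6 were called higher and 0 lower by limma at a Benjamini-Hochberg adjusted p under 0.05, where 24.5% of all 10488 genes tested were called, 11.7% higher and 12.7% lower. At least 1.5-fold higher were Ccl2, Ccl7 and Ccl3, at ranks 8, 11 and 33 by size of rise, where 1.22% of all genes rose that much. The gene not tested, Ccl9, was not above background on any array. The median change of the 5 tested ligands was 0.99 on the log2 scale and that of the 2 receptors 0.18, beside −0.02 for all genes tested.

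**Figure D1:**
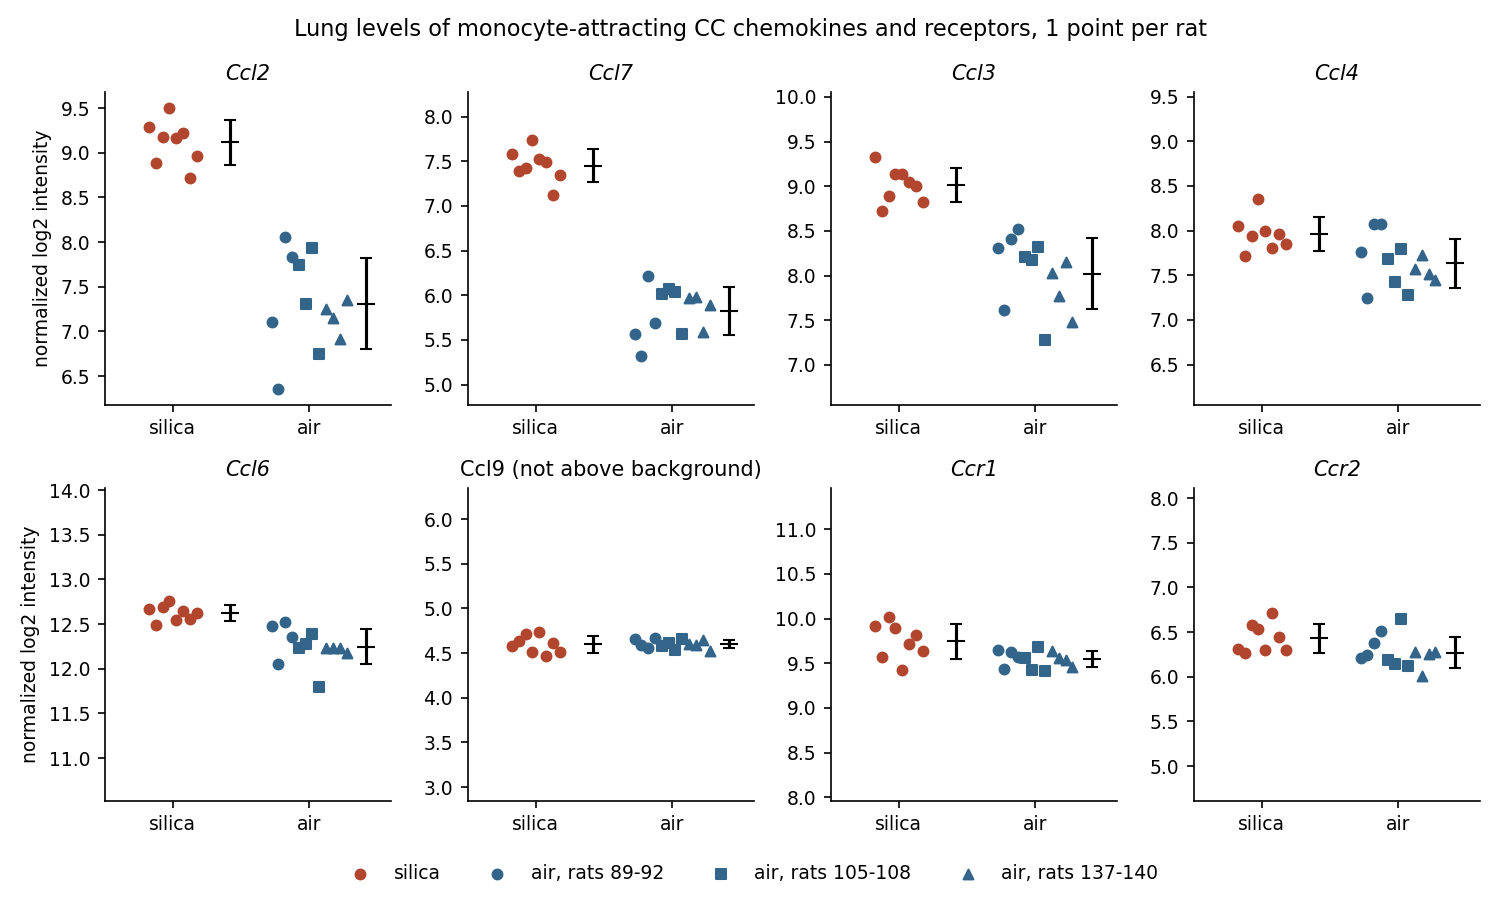
Normalized log2 intensity (vertical axis, 3.5 log2 units in every panel) of the 8 genes in silica lungs (red circles, n = 8) and air lungs (blue, n = 12, marker shape giving the run of identifiers), with mean and SD as black bars beside the points. Silica and air lungs do not overlap for Ccl2, Ccl7 and Ccl3, whereas they do for Ccl4, Ccl6, Ccr1 and Ccr2, and Ccl9 is at background.

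Between 9434 and 10840 genes were detected per array (detection p under 0.01), and any pair of arrays correlated at 0.978 to 0.996 over the genes, which are no replicates of one another. The lung epithelial markers Sftpc, Sftpb, Sftpa1, Sftpd, Scgb1a1, Ager and Aqp5 were detected on every array. Of the 10488 genes tested, 0.162% differed between the 3 runs of air rats (limma's moderated F test, adjusted p under 0.05), and none of the 7 genes described here did, with adjusted p from 0.731 to 0.942.

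Ccl2 (probe ILMN_1357229), also called MCP-1, is the main chemokine that calls monocytes out of the blood. Its normalized log2 intensity ranged from 8.72 to 9.50 with a median of 9.17 in silica lungs, and from 6.36 to 8.06 with a median of 7.28 in air lungs. Every silica rat lay above every air rat, a separation that 1.83% of all genes tested showed (0.744% showed the reverse). In raw intensity the medians were 622 in silica lungs and 207 in air lungs. The group means were 9.12 ± 0.25 in the 8 silica lungs, against 7.31 ± 0.51 in the 12 air lungs (± SD), which gives a difference of 1.80 ± 0.17 (SE, limma adjusted p = 6.72e-08). Air rats thus varied more than silica rats: rat 90 had 6.36 and rat 91 of the same run 8.06. Each value rests on 36 to 66 beads, and the standard error over beads was 2.05% to 4.98% of the raw intensity. The SD between rats, taken from the normalized values, was 18.9% in silica and 42.4% in air lungs. Raw intensity still holds background, so the percentages for beads and for rats are not on the same scale.

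Ccl7 (ILMN_1366023), or MCP-3, is the direct neighbour of Ccl2: no protein-coding gene lies between them on rat chromosome 10 in RefSeq's GRCr8 annotation. Its log2 intensity ranged from 7.12 to 7.73 with a median of 7.46 in silica lungs, and from 5.32 to 6.22 with a median of 5.93 in air lungs. The groups did not overlap here either, and the gap between the lowest silica and the highest air rat was wider than for Ccl2. Means were 7.45 ± 0.18 in the 8 silica lungs, against 5.82 ± 0.27 in the 12 air lungs (± SD), which gives a difference of 1.63 ± 0.10 (SE, limma adjusted p = 8.22e-11). Ordered by p, Ccl7 stood at rank 7 and Ccl2 at rank 43 of all genes tested. Ccl7 is a dim gene, with raw intensities of 158 to 251 in silica and 78.2 to 130 in air lungs, and it was detected on 8 of 8 silica and 11 of 12 air arrays. The size of its change depended on the background correction: it was 0.43 with limma's default neqc call and 0.83 in the authors' normalized log2 values, with adjusted p of 2.62e-11 and 1.05e-11.

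Promoter sequences, 250 bases before to 50 bases after the start of the gene, were given by RefSeq (GRCr8) for 5 of the 8 genes. Those of Ccl7, Ccl6 and Ccr2 are shown as examples of genes that differed in their change (3.09-fold, 1.30-fold and 1.12-fold). Capitals mark matches on either strand to AP-1 (TGANTCA), NF-kB (by its usual 10-base consensus), the TATA box (TATAAA), the GC box (GGGCGG) and PU.1 (GAGGAA).
Ccl7: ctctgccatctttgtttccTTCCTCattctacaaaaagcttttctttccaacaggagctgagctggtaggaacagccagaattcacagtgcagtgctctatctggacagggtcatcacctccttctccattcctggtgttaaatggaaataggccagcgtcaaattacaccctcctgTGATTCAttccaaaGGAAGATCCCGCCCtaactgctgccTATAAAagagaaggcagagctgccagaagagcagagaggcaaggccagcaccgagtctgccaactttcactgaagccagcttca
Ccl6: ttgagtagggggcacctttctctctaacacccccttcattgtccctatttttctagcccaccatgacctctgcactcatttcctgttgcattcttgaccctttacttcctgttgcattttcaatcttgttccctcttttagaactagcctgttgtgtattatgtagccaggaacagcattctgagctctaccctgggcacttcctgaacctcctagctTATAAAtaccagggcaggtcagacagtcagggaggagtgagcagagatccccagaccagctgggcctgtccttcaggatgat
Ccr2: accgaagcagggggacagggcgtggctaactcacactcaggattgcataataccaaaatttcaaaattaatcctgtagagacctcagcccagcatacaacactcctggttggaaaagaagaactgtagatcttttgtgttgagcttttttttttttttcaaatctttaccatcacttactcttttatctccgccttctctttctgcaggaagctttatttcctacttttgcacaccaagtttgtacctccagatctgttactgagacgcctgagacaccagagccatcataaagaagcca
The Ccl7 window (chr10:67513845-67514144, plus strand) held a match to each of the 5. The AP-1 match began 73 bases, the NF-kB match 59 bases and the TATA box 34 bases before the start, and the GC box match, 51 bases before it, overlapped the NF-kB match. The Ccl6 window (chr10:68883317-68883616, minus strand) held only a TATA box, 32 bases before the start. The Ccr2 window (chr8:132611953-132612252, plus strand) held none of these letters. Of the 2 windows not printed, that of Ccl9, at background on every array, held 2 NF-kB and 3 TATA box matches, and that of Ccr1, called higher, held only a PU.1 match. The NF-kB matches of Ccl9 began 106 bases before and 14 bases after the start. Its TATA box matches began 165 bases before and 37 and 39 bases after it, the latter overlapping on opposite strands. Of 33469 rat promoter windows of the same length, 7.33% held the AP-1 letters, 7.51% the NF-kB, 14.2% the TATA box, 33.1% the GC box and 27.6% the PU.1 letters. A match describes the sequence and does not show that a factor binds there.

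Ccl3 (ILMN_1369286) and Ccl4 (ILMN_1356351), the macrophage inflammatory proteins MIP-1 alpha and MIP-1 beta, are made mainly by activated macrophages and are also direct neighbours on chromosome 10. Ccl3 ranged from 8.73 to 9.33 with a median of 9.03 in silica lungs, and from 7.28 to 8.53 with a median of 8.16 in air lungs. All 8 silica rats lay above all 12 air rats. Its means were 9.01 ± 0.19 in the 8 silica lungs, against 8.02 ± 0.40 in the 12 air lungs (± SD), which gives a difference of 0.99 ± 0.14 (SE, limma adjusted p = 1.12e-05).

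Ccl4 had a smaller difference than its neighbour, a contrast that was not tested. It ranged from 7.72 to 8.36 with a median of 7.95 in silica lungs, and from 7.24 to 8.07 with a median of 7.62 in air lungs. Here the groups overlapped: 1 silica rat, rat 84, lay above all air rats, and 2 air rats, 91 and 92, lay above the silica median. Means were 7.96 ± 0.19 in the 8 silica lungs, against 7.63 ± 0.27 in the 12 air lungs (± SD), which gives a difference of 0.33 ± 0.10 (SE, limma adjusted p = 0.0215). The call did not hold without silica rat 84 (0.27, adjusted p = 0.0552) or against air rats 89 to 92 alone (0.17, adjusted p = 0.555), and with the default neqc call the difference was 0.19 (adjusted p = 0.0261).

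Ccl6 (ILMN_1369168) is a chemokine that mouse macrophages make without stimulation. It was bright in both groups, with raw intensities of 5168 to 7568 in silica and 3154 to 7139 in air lungs. Its log2 intensity ranged from 12.49 to 12.76 with a median of 12.63 in silica lungs, and from 11.79 to 12.53 with a median of 12.24 in air lungs. After normalization 7 of 8 silica rats lay above every air rat. Means were 12.62 ± 0.09 in the 8 silica lungs, against 12.25 ± 0.19 in the 12 air lungs (± SD), which gives a difference of 0.38 ± 0.07 (SE, limma adjusted p = 2.82e-04).

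Ccl9 (ILMN_1348926) was not above background. Its raw intensity was 48.0 to 64.4 in silica and 49.9 to 77.0 in air lungs, and its detection p ranged from 0.153 to 0.773 over the 20 arrays. It was detected on 0 of 8 silica and 0 of 12 air arrays, so no fold change is given.

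Ccr1 (ILMN_1356721) is the shared receptor of several of these ligands. It ranged from 9.42 to 10.01 with a median of 9.77 in silica lungs, and from 9.41 to 9.68 with a median of 9.56 in air lungs. In silica lungs 5 of 8 rats lay above every air rat, but rat 85, at 9.42, lay below all but 1 of the air rats. Means were 9.75 ± 0.20 in the 8 silica lungs, against 9.55 ± 0.09 in the 12 air lungs (± SD), which gives a difference of 0.20 ± 0.06 (SE, limma adjusted p = 0.0188). Among the 7 genes tested Ccr1 alone had a larger SD in silica lungs, 14.6% of its level against 6.65% in air lungs. Its call was lost without silica rat 83, the highest (0.16, adjusted p = 0.0530).

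Ccr2 (ILMN_1350137), the receptor by which monocytes leave the marrow and enter tissue, was dim in both groups, with raw intensities of 115 to 173 in silica and 93.9 to 137 in air lungs, although it was detected on all 20 arrays. Its log2 intensity ranged from 6.27 to 6.72 with a median of 6.38 in silica lungs, and from 6.01 to 6.65 with a median of 6.25 in air lungs. The groups overlapped in part: all 8 silica rats lay above the air median and 7 of 12 air rats lay below every silica rat, but only silica rat 86 lay above the highest air rat. Means were 6.43 ± 0.17 in the 8 silica lungs, against 6.27 ± 0.17 in the 12 air lungs (± SD), which gives a difference of 0.16 ± 0.08 (SE, limma adjusted p = 0.145). The upper end of the interval, 1.25-fold, bounds the rise on this scale, which understates changes of dim genes. With median scaling the difference was 0.22 (adjusted p = 0.0798) and with the default neqc call 0.03 (adjusted p = 0.153).

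**Figure D2:**
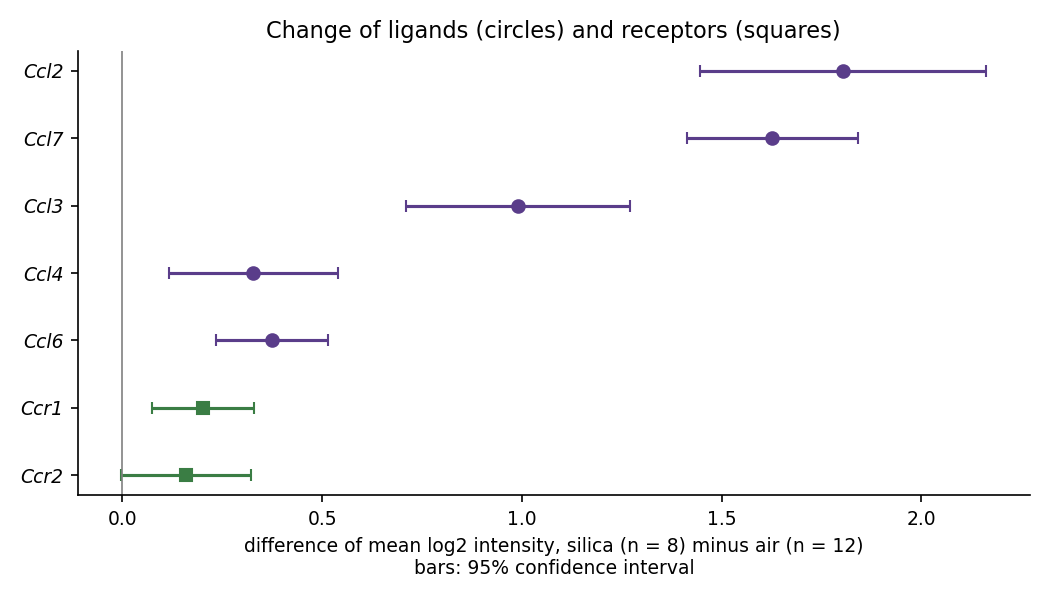
Difference of mean log2 intensity, silica (n = 8) minus air (n = 12), on the horizontal axis, with its 95% confidence interval, for the 5 tested ligands (purple circles) and the receptors (green squares). Ccl2 and Ccl7 lie at 1.80 and 1.63, Ccl3 at 0.99 and the other 4 genes between 0.16 and 0.38, and the interval of Ccr2 alone includes 0.

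Ligands and receptors were then set against each other within each array, which asks whether a ligand changed more than the receptor it binds. Signals of different probes are not comparable as levels, so that only the shift of their difference between groups carries information. Changes of dim genes, here Ccr2 and Ccl7, are understated, so the size of a shift also depends on probe brightness. Ccl2 relative to Ccr2 was 2.69 ± 0.24 (SD, n = 8) log2 units in silica lungs and 1.04 ± 0.43 (SD, n = 12) in air lungs, a shift of 1.65. Ccl7 relative to Ccr2 shifted by 1.47, with 1.02 ± 0.23 in silica and −0.45 ± 0.30 in air lungs. For both pairs all 8 silica rats lay above all air rats, and the exact 2-sided permutation p was 7.94e-06, the smallest that the 125970 splits of 20 arrays into 8 and 12 can give (adjusted over 4 pairs, 1.59e-05). With the default neqc call the shift of Ccl7 relative to Ccr2 was 0.39, and in the authors' log2 values 0.75.

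Ccl3 relative to Ccr1 shifted by 0.79 (exact permutation p = 1.59e-05, adjusted 2.12e-05), with −0.74 ± 0.24 in silica lungs and −1.52 ± 0.34 in air lungs, and 7 of 8 silica rats lay above all air rats. Ccl6 relative to Ccr1 shifted by 0.17 (exact permutation p = 0.0126, also after adjustment), with 2.87 ± 0.15 in silica and 2.70 ± 0.14 in air lungs. The 2 groups overlapped for this pair, 4 of 8 silica rats lying above all air rats, and the shift was 0.093 against air rats 89 to 92 alone (adjusted p = 0.295). The planned pair of Ccl9 with Ccr1 was left out because Ccl9 was at background.

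**Figure D3:**
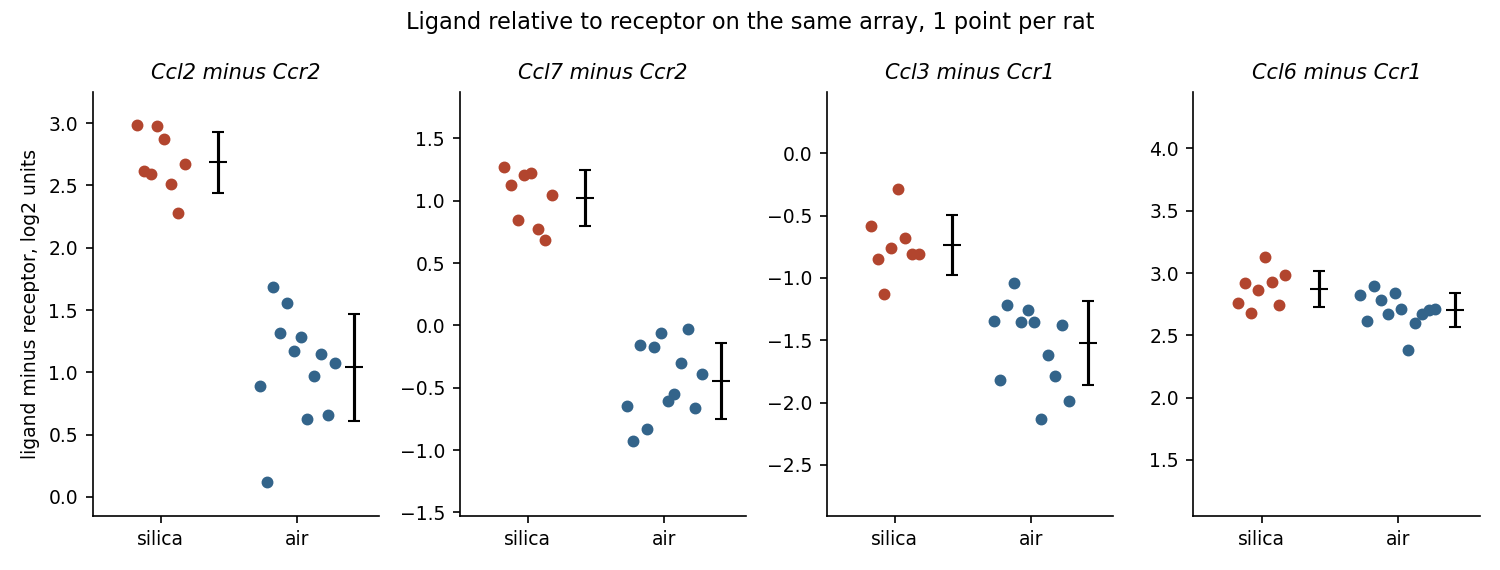
Ligand minus receptor on the same array in log2 units (vertical axis, equal span in every panel) for 4 pairs, with silica lungs (red, n = 8) left of air lungs (blue, n = 12) and mean and SD as black bars. The shift between groups is 1.65 and 1.47 for the pairs with Ccr2, 0.79 for Ccl3 with Ccr1 and 0.17 for Ccl6 with Ccr1.

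The controls' 3 runs of identifiers could be batches, so the silica rats were set against every run of 4 by itself. These comparisons share the 8 silica arrays. Against air rats 89 to 92, which follow the silica rats in number, 4 of the 7 genes were called higher (6.18% of all genes were called either way and 3.76% higher there): Ccl2 (1.78 ± 0.24 SE), Ccl7 (1.76 ± 0.14), Ccl3 (0.80 ± 0.14) and Ccl6 (0.27 ± 0.08). All 5 tested ligands were called higher against air rats 105 to 108, where 17.4% of genes were called and 8.73% higher, and against air rats 137 to 140, where 20.7% were called and 10.8% higher. Neither receptor was called against any run alone. The Ccr1 difference was 0.18, 0.23 and 0.20 against the 3 runs in the order of their identifiers (limma adjusted p from 0.114 to 0.305), close to its value against all air rats. Ccr2 gave 0.093, 0.16 and 0.23 (adjusted p from 0.119 to 0.662).

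**Figure D4:**
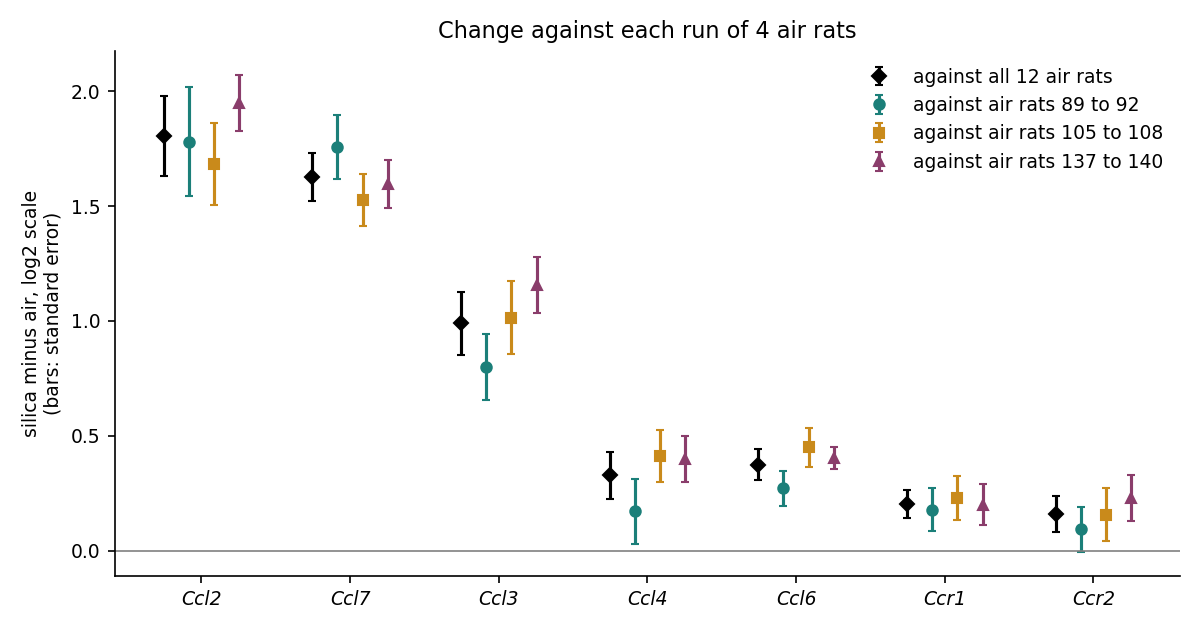
Silica minus air on the log2 scale (vertical axis) with its standard error for the 7 tested genes, against all 12 air rats (black diamonds) and against each run of 4 air rats. Ccl2 lies between 1.68 and 1.95 and Ccl7 between 1.53 and 1.76 in all 4 comparisons, while Ccl4 is 0.17 against air rats 89 to 92 and 0.41 and 0.40 against the other runs.

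Neighbouring ligand genes were also followed from rat to rat within each group. Over the 8 silica rats Ccl2 and Ccl7 had a Pearson r of 0.953 (exact permutation p = 5.95e-04, adjusted over 10 relations 0.00595) and a Spearman rho of 0.905 (exact permutation p = 0.00456, adjusted 0.0152). Without the 2 silica rats farthest from the median of Ccl2, r was 0.841. Over the 12 air rats r was 0.775 (permutation p = 0.00353, adjusted 0.0118) and rho 0.783 (permutation p = 0.00409, adjusted 0.0152), with r = 0.541 without 2 rats and 0.844 after centring on the 3 runs.

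Ccl3 and Ccl4 varied together over the air rats, with r = 0.790 (permutation p = 0.00243, adjusted 0.0118), rho = 0.839 (permutation p = 0.00128, adjusted 0.0128), 0.759 without 2 rats and 0.769 centred on runs. Over the silica rats this pair did not pass after adjustment (r = 0.645, exact permutation p = 0.0795, adjusted 0.115; rho = 0.786, exact permutation p = 0.0279, adjusted 0.0559). Ccl3 and Ccr1 had r = 0.695 over the air rats (permutation p = 0.0134, adjusted 0.0334; rho = 0.692, permutation p = 0.0154, adjusted 0.0386), which was 0.498 without 2 rats. Over the silica rats their r was 0.236 (exact permutation p = 0.573, adjusted 0.573; rho = 0.214, exact permutation p = 0.619). The remaining 4 relations, those of Ccr1 with Ccr2 and of Ccl2 with Ccr2 in each group, had r between 0.359 and 0.593 and did not pass after adjustment (Pearson adjusted p from 0.0843 to 0.418, Spearman adjusted p from 0.0607 to 0.218). All values of a rat come from 1 array, so array-wide differences are shared by both genes of a pair.

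**Figure D5:**
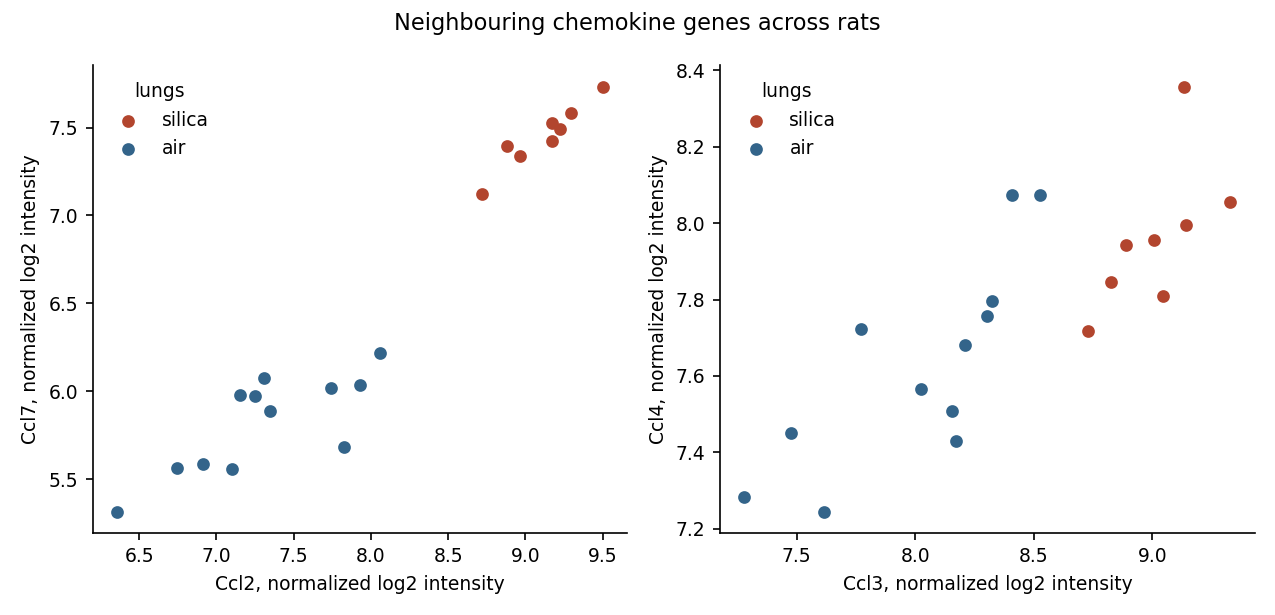
Normalized log2 intensity of Ccl7 against Ccl2 (left) and of Ccl4 against Ccl3 (right), 1 point per rat, silica lungs in red (n = 8) and air lungs in blue (n = 12). Ccl2 and Ccl7 rise together within both groups (r = 0.953 and 0.775), and silica rats lie apart from air rats along both axes on the left but along the Ccl3 axis alone on the right.

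The same air rats stood at the ends for several ligands. Rat 91 was the highest of the 12 air rats for Ccl2, Ccl7 and Ccl6, and together with rat 92 it gave the highest 2 values of Ccl3 and Ccl4. Rats 90 and 108 held the lowest 2 places for Ccl2, Ccl4 and Ccl6. Rat 108 was also lowest for Ccl3 and Ccr1. Among silica rats, rat 84 was highest for Ccl2, Ccl7, Ccl4 and Ccl6, and rat 82 lowest for Ccl3, Ccl4, Ccl6 and Ccr2.

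Among all genes tested, those whose deviations from the group means followed Ccl2 most closely over the 20 arrays were Gm2a, a lysosomal lipid-binding activator (r = 0.887), Mmp12, the macrophage elastase (0.863), Trim36, of a family of ubiquitin ligases (0.858), the complement component C2 (0.853) and Ak4, an adenylate kinase of mitochondria (0.837). Ccl7 stood at rank 12 of 10487 in this order (r = 0.801), Ccl4 at 16 (0.790), Ccl6 at 86 (0.702), Ccl3 at 124 (0.678), Ccr2 at 460 (0.520) and Ccr1 at 1078 (0.385). Ak4 followed Ccl2 from rat to rat although its mean was lower in silica lungs (−0.27). These are descriptions over arrays that share their normalization, and the highest of so many correlations are selected.

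Other CC chemokines on the array moved in both directions. Of 11 further CC ligands 7 could be tested, 3 of which were called higher, 1 lower and 3 not called, with a median log2 change of 0.10. Among all genes tested 11.7% were called higher and 12.7% lower. Ccl20, the Ccr6 ligand that draws dendritic cells and lymphocytes, was 2.84-fold higher (log2 SE 0.25, limma adjusted p = 1.05e-04) and Ccl17, a Ccr4 ligand, was higher by 0.68 ± 0.11 log2 units (adjusted p = 8.85e-05). Ccl12, which acts on Ccr2 in the mouse and lies with Ccl11 in the same stretch of chromosome 10 as Ccl2 and Ccl7, was higher by 0.43 ± 0.16 (adjusted p = 0.0478), whereas Ccl11 had a difference of 0.06 ± 0.15 (adjusted p = 0.808). Along that stretch the order Ccl2, Ccl7, Ccl11, Ccl12 thus carried differences of 1.80, 1.63, 0.06 and 0.43.

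Ccl5, a ligand of Ccr1 made largely by T and natural killer cells, was lower in silica lungs, with a log2 difference of −0.32 ± 0.05 (limma adjusted p = 1.09e-04). It lies next to Ccl9 on the same chromosome. Against air rats 89 to 92 alone Ccl17 (0.72) and Ccl5 (−0.39) were called, and Ccl20 (1.06, adjusted p = 0.0961) and Ccl12 (0.62, adjusted p = 0.122) were not. Of 8 T cell markers tested against all air rats 6 were called lower and 0 higher, where 12.7% of all genes were called lower and 11.7% higher. Their summed normalized intensities were 1991 to 2443 in silica and 2391 to 3336 in air lungs. Of 5 natural killer cell markers tested 4 were lower and 0 higher, with sums of 4152 to 4948 in silica and 4769 to 6123 in air lungs. Against air rats 89 to 92 alone 1 T cell marker and 1 natural killer cell marker were called lower, where 254 of all 10488 genes were. Cd5 and Klrk1 of these lists were detected on no array. The part of either cell type in the Ccl5 difference was not tested.

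The other CC receptors gave no calls. Of 9 on the array, 5 could be tested, and limma called 0 at an adjusted p under 0.05 and 2, Ccr6 and the decoy-like Ccrl2, at an unadjusted p under 0.05. Among all genes tested 24.5% were called after adjustment, and 5 genes are too few to tell 0 calls from that share. Their differences were −0.20 ± 0.07 for Ccr6 (adjusted p = 0.0540) and −0.11 ± 0.05 for Ccrl2 (adjusted p = 0.132). Ccr6 and Ccrl2, named for their unadjusted p although not called, and Ccl11 above were named after their values were seen.

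Downstream of the receptors, 25 genes of chemokine receptor signalling could be tested, of which 6 were called higher and 2 lower. The median log2 change was 0.03. Those of smallest p included Gnb1, a G protein subunit (−0.18 ± 0.04), Vav1, a guanine nucleotide exchange factor of blood cells (0.24 ± 0.05), phospholipase Plcb2 (0.36 ± 0.08) and the GTPase Rac2 (0.22 ± 0.05), with limma adjusted p from 0.00120 to 0.00284. Calls at this rate, 8 of 25, stand beside 24.5% for all genes. Against air rats 89 to 92 alone 1 of them, Gnb1, was called.

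Among 18 inducers of CC chemokines and their regulators 5 were called higher and 0 lower, with a median of 0.10, where 24.5% of all genes were called and 11.7% higher. They were Il1b (0.44 ± 0.08) and Il1a (0.44 ± 0.08), the interleukin 1 cytokines, Tlr2, a sensor of bacterial lipoproteins (0.34 ± 0.07), and the NF-kB inhibitors Nfkbia (0.22 ± 0.06) and Nfkbie (0.28 ± 0.10), with limma adjusted p from 4.91e-04 to 0.0472. Tlr2 alone was called against air rats 89 to 92 (0.44). Tnf and Il6, cytokines that also induce Ccl2, were detected on 0 of 20 arrays and are named after that was seen.

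Markers of phagocytes were read from the same fit, in which 11.7% of all genes were called higher. Of 9 monocyte and macrophage markers tested 7 were called higher, 0 lower and 2 not called, and the summed normalized intensity of these 9 was 23349 to 26119 in silica and 13527 to 21742 in air lungs. Of the 12 on the array, Marco was detected on no array. Of 8 neutrophil markers tested 6 were called higher, 0 lower and 2 not called, with sums of 4502 to 6243 in silica and 1793 to 2698 in air lungs. Such sums, here and for the T and natural killer cell markers, mostly follow the brightest genes of a list. Of that list Mpo, S100a9 and Ltf were detected on no array. Against air rats 89 to 92 alone 4 markers of each list were called higher, where 3.76% of all genes were. The part of these cells in the changes of the ligands and of Ccr1 was not tested.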

How the data were processed

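Total RNA from 8 silica and 12 air rat lungs (375 ng each) was measured on Illumina bead arrays, 1 per rat. The submitters' processing notes name BeadStudio, lumi and limma, without versions or roles; the genome build of the probes was not given in the sources used here. The deposited table held an intensity per gene and array, not background-subtracted and not normalized, judging from its values. Beside it the authors gave a detection p-value against negative control beads, the standard error of the signal over beads, and the number of beads. The authors' normalized log2 values, 12763 rows with array means of 8.354 to 8.357, served as an alternative. Their exact transformation is not stated.

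Intensities were background-corrected by normexp in limma 3.58.1 (R 4.3.3), with each array's control mean and SD inferred from the detection p-values of the 21109 rows of 1 probe, since 683 rows average several. An offset of 16, log2 and quantile normalization followed. Array medians of raw intensity were 67.0 to 98.6, with 40 to 43 beads per gene at the median, and precision is limited by the number of arrays. Rows needed a detection p under 0.01 on 8 or more arrays. Of 21792 rows, 10488 passed and were tested with lmFit and eBayes (intensity trend, Benjamini-Hochberg), and 11304 were set aside. Fold changes of dim genes are understated by the offset. Ligand and receptor differences were tested by exact permutation of arrays. Correlations used all orders of the 8 silica rats and 100000 resamples of the 12 air rats, with ranks for rho from scipy 1.17.1.

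The genes and lists were chosen with earlier results of these data known, as were the main correction and the tests, so that their calls are no independent support. Every gene of the chosen set is named. Of each related list, all called genes were named where 5 or fewer were called, otherwise the 5 of smallest p, and for Ccl2 the 5 genes of highest r. A gene that this rule would name is not reported here. Older symbols were updated with RefSeq's table. Alternatives were limma's default neqc call, no background correction, an offset of 50, median scaling, no filter on detection, detection on all 20 arrays, the authors' log2 values, no intensity trend, array weights, a replicate block, each run of air rats alone and leaving out each rat. Tested on simulated data over the same 10488 genes (silica against all air), the fit called 11 of 50 genes changed by 0.2 log2 units, 41 of 50 by 0.4, 49 of 50 by 1.0 and 50 of 50 by 1.7, with 9 false calls. Only these genes were changed there, with noise drawn independently for each gene, whereas 2566 genes were called in the data. The simulated rates therefore need not hold for the data.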

Additional observations from a re-analysis of the deposited data

How the results depend on the processing

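Ccl2, Ccl7, Ccl3 and Ccl6 were called higher, and Ccr2 was not called, under every alternative run on single genes, and the shifts of Ccl2 and Ccl7 relative to Ccr2 and of Ccl3 relative to Ccr1 kept their calls under those run on them. Leaving out each rat gave log2 differences of 1.72 to 1.87 for Ccl2, 1.58 to 1.67 for Ccl7, 0.92 to 1.04 for Ccl3, 0.33 to 0.40 for Ccl6 and 0.12 to 0.19 for Ccr2. For the calls that were lost in places it gave 0.27 to 0.37 for Ccl4 and 0.16 to 0.25 for Ccr1, with 5 to 6 genes of the set called. Requiring detection on all 20 arrays set Ccl7 aside and called the other 5. Air rats 89 to 92 alone gave 648 calls over all genes, 60.8% of them higher against 48.0% with all air rats, and 0.17 for Ccl4, 0.18 for Ccr1 and 0.093 for Ccl6 minus Ccr1. With air rats 105 to 108 Ccr1 was 0.23, and with rats 137 to 140 it was 0.20, also not called. Fewer arrays entered these fits. The SE of Ccr1 was 0.094 with air rats 89 to 92, 0.095 with 105 to 108 and 0.091 with 137 to 140. With all air rats the Ccr1 difference was 0.20 and its SE 0.062. The cause of the lost calls was not tested. With the replicate number as a block, 1539 genes were called, Ccr1 was 0.19 (adjusted p = 0.0604) and 5 genes of the set were called. The numbers share no animal, and deviations of same-numbered rats correlated at −0.228 to 0.163, over 0.1 in 1 of 8 pairs and highest with the own number in 0. Depth of signal limits Ccl7 and Ccr2: Ccl7 was 1.14 without background correction and Ccr2 at most 0.23 in any alternative run. One time point, male rats of 1 strain and whole lung limit what the values describe, and the probes for Ccl9 and Ccl22 stood near background.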

Other observations

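Ccl22, a Ccr4 ligand made by macrophages and dendritic cells, was detected on 6 of 8 silica arrays and 0 of 12 air arrays and so was not among the genes tested. Its normalized log2 intensity was 5.52 ± 0.31 in the 8 silica lungs and 4.77 ± 0.18 in the 12 air lungs (± SD). Its signal on the air arrays was at background, so no fold change is given. Pik3cg, a phosphoinositide kinase that acts below chemokine receptors, was detected on 4 of 8 silica and 0 of 12 air arrays and was not tested. Both were chosen after their values were seen.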
